A study of Homo sapiens with 12 samples.

Results

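The 10 transcripts described here, FOS, FOSB, FOSL2, JUN, JUNB, JUND, EGR1, ATF3, IER2 and DUSP1, are immediate early genes and members of the activator protein 1 (AP-1) family. They were taken as a fixed list of symbols, matched through Ensembl identifiers to the 65969 gene identifiers of the deposited table. All 10 were found, and all 10 were among the 24898 genes abundant enough to be tested. The libraries are total RNA from human embryoid bodies, clusters in which pluripotent cells leave the stem cell state while floating in culture. The cells were of 2 embryonic stem cell lines in wide use, H1 and MEL1. In all 12 libraries the cells carried a lentiviral short hairpin that doxycycline switches on, after puromycin selection, so the SCR control cells had the vector, the selection and the drug too. The hairpin was SCR, a scrambled control, or 1 of 3 hairpins against METTL14, named KD1, KD2 and KD3. Aggregates were seeded at 500 cells per microwell and kept with doxycycline at 2 µg/ml for 10 days. H1 gave 2 libraries each of SCR, KD1, KD2 and KD3. MEL1 gave 1 SCR, 2 KD1 and 1 KD2 library, and none of the 12 libraries was MEL1 with KD3. Nothing in the labels says whether libraries of a group came from separate cultures, so the spread between them may be technical, and library numbers below only name them.

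METTL14 encodes a partner of METTL3 in the complex that writes N6-methyladenosine on RNA, a mark that affects how long many messages last. Immediate early genes are transcribed within minutes of a growth factor or stress signal, without new protein synthesis, because kinases act on factors already present at their promoters, such as SRF with its ternary complex partners and CREB. Their messages are short-lived, many through AU-rich elements in the 3′ UTR. FOS and JUN family proteins pair through leucine zippers to form AP-1, which binds DNA at AP-1 elements and, with ATF partners, at cyclic AMP response elements (CRE). EGR1 is a zinc finger transcription factor and IER2 a small nuclear protein of the same early response. DUSP1 is the phosphatase that switches off the MAP kinases upstream of the group. In embryoid bodies, growth factor signalling and handling stress can both bring these genes on.

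Promoter sequence is shown first, as a description, for some of the members with a marked element. Whether such elements have a part in the joint movement of transcripts described below was not tested. The stretches run from 180 to 21 bases before the RefSeq start site of the gene, on its own strand, on GRCh38.p14. Windows from 250 bases before to 50 after the start were searched on both strands for the CRE (TGACGTCA), its first part (TGACGT, here called the short CRE, which every full CRE contains), the AP-1 element (TGANTCA), the SRF-binding CArG box, and TATAAA. Capitals mark short and full CREs and CArG boxes. EGR1 lies at chr5:138465299-138465458 on the plus strand, FOS at chr14:75278648-75278807 on the plus strand, FOSB at chr19:45467816-45467975 on the plus strand, DUSP1 at chr5:172771216-172771375 on the minus strand and JUND at chr19:18281643-18281802 on the minus strand.
EGR1: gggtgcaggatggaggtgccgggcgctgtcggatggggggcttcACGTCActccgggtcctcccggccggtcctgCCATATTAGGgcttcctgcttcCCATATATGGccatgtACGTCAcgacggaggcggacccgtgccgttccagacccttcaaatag
FOS: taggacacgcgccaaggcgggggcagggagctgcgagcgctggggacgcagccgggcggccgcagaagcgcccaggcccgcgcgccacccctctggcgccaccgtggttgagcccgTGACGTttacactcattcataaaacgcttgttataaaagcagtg
FOSB: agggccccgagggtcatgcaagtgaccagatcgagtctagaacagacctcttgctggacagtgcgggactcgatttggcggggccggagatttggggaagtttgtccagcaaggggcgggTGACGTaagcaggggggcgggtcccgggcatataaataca
DUSP1: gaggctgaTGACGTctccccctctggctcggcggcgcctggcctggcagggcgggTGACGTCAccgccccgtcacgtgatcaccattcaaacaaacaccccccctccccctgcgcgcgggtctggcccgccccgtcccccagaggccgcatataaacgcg
JUND: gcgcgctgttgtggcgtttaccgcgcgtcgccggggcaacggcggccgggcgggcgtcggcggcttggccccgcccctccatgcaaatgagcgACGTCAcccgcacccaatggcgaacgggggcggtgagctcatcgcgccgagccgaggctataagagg

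The short CRE was in the windows of 6 members, FOS, FOSB, FOSL2, JUND, EGR1 and DUSP1, and in 7.98% of all 35116 RefSeq windows. A full CRE was in the windows of 2 members, DUSP1 at -125 to -118 and JUND at -200 to -193 relative to the start, against 1.85% of all windows. EGR1 was the member with CArG boxes in its window, at -105 to -96 and at -83 to -74, and 1.29% of all windows held at least 1. The AP-1 element was in the FOSL2 window, against 7.71% of all windows. TATAAA was in the windows of 5 members, FOS, FOSB, JUNB, ATF3 and DUSP1, against 11.5% of all. ATF3 has 2 RefSeq starts, so 11 windows were searched for the 10 genes. These matches describe letters in the windows and not binding. Sequence outside the windows was not searched, so a member without a match may hold the element elsewhere.

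The level of METTL14, the targeted gene, was 29.8 and 43.8 CPM (counts brought to one library size) in H1 SCR and 8.89 to 17.7 CPM in the H1 knockdown libraries. It was 49.9 CPM in MEL1 SCR and 5.94 to 8.95 CPM in MEL1 knockdown, so 9 of 9 knockdown libraries lay below the SCR libraries of their line. Library totals were 15963241 estimated counts in MEL1 SCR and 36609628 to 43508287 in the others. All 5 pluripotency markers and all 5 neural progenitor markers examined were detected at a mean of at least 1 CPM. So were all 5 neuron and all 5 mesenchyme markers, 2 of 5 endothelial, 2 of 5 cardiac and 2 of 5 trophoblast markers, and none of the blood or endoderm markers, 5 each. The libraries also differ in how the level of a gene follows the GC content of its transcript. The rank correlation between GC content and the deviation of a gene from the mean of its line, across 15601 genes, ran from -0.54 in MEL1 SCR to 0.55 in 1 H1 KD1 library. It differed within groups as well, at 0.22 and -0.41 in the H1 SCR libraries. Of the 10 members, 9 had a GC content above the median of all genes tested, 48.6%. Values with that trend removed are given below for several results. They are not given for the estimates of single hairpins, the order of groups or the correlations between members.

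**Figure D1:**
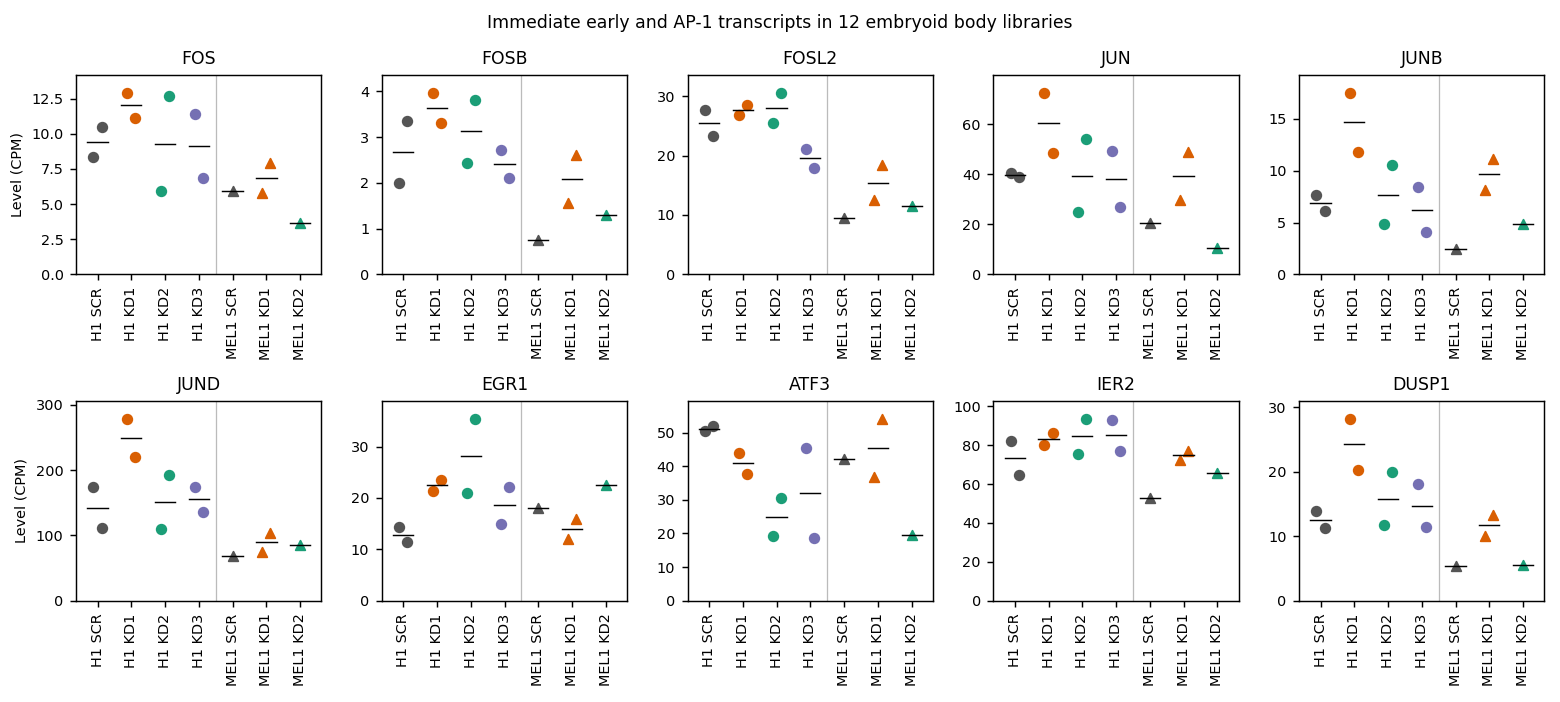
Level of each gene (vertical axis, CPM, starting at 0) by group. Each point is a library, circles H1 and triangles MEL1, and the line is the group mean. The 6 H1 knockdown libraries sit above both H1 SCR libraries for EGR1 and below both for ATF3, while the other 8 genes overlap.

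Per kilobase of the longest annotated transcript, JUND was the most abundant member at a mean of 77.3 CPM per kb over the 12 libraries. JUND is the JUN protein that cells keep at a steady level, and its gene is a single exon at chromosome 19, 18279760 to 18281622, minus strand (GENCODE release 29, GRCh38). IER2 followed at 26.1, ATF3 at 17.9, JUN at 11.0, DUSP1 at 6.99, EGR1 at 6.17, JUNB at 4.47, FOS at 3.98 and FOSL2 at 3.15 CPM per kb. FOSB was lowest at 0.661 CPM per kb. When the means of the 7 groups were put in order, H1 KD1 was highest for 6 members, FOS, FOSB, JUN, JUNB, JUND and DUSP1. MEL1 SCR was lowest for 6, FOSB, FOSL2, JUNB, JUND, IER2 and DUSP1. Most neighbours in these orders were close, and in 18 of 60 neighbouring pairs of groups the log2 difference exceeded the SD of that gene between libraries of a group.

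With knockdown of METTL14, none of the 10 transcripts passed the edgeR threshold. Over both lines, with line as a covariate, 0 of 10 were called at an adjusted p under 0.05, where 0.213% of all genes tested were. Without adjustment, 2 of 10 had an edgeR p under 0.05, IER2 and DUSP1, as had 3918 of all 24898 genes tested. DESeq2 also called 0, against 5% of all genes. For the 3 H1 hairpins averaged and set against control, edgeR called 0 of 10 against 7.16% of all genes. EGR1 alone of the 10 had an unadjusted p under 0.05, as had 5783 of all 24898 genes tested. DESeq2 called 1 there, EGR1, against 10.8% of all genes, and edgeR with no filter on low counts called 4, ATF3, DUSP1, EGR1 and JUND, against 8.11%. The median log2 fold change of the 10 was 0.35 over both lines, where the median of all genes tested was 0.05, and 0.19 in H1, where it was 0.01. Over both lines 9 of 10 estimates were positive, ATF3 being the exception, where 13729 of all 24898 genes tested had a positive estimate. With the GC trend removed the median of the 10 was 0.13 over both lines and 0.15 in H1, beside 0.05 and 0.01 for all genes, and 8 of 10 estimates over both lines were positive. Over both lines those of FOSB and JUN were then 0.29 and 0.19, where they were 0.45 and 0.32 with the trend left in.

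Within the FOS family no member separated knockdown from control. FOS (chromosome 14, 75278774 to 75282230, plus strand) encodes the induced partner of JUN in AP-1. Its levels in H1 were 8.33 and 10.5 CPM with SCR, 12.9 and 11.1 with KD1, 5.95 and 12.7 with KD2 and 11.4 and 6.84 with KD3. Both KD1 libraries lay above both SCR libraries, but the KD2 pair and the KD3 pair each had 1 library above and 1 below them. In MEL1, FOS stood at 5.93 CPM with SCR, 5.78 and 7.92 with KD1 and 3.64 with KD2. The log2 fold change was 0.10 (SE 0.29) in the H1 average and 0.06 (SE 0.27) over both lines, with an edgeR adjusted p of 0.942 over both lines.

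FOSB (chromosome 19, 45467995 to 45475179, plus strand) is the FOS relative best known from repeatedly stimulated neurons. It was at 2.00 and 3.36 CPM in H1 SCR and 2.11 to 3.97 CPM in H1 knockdown, with a median of 3.01. In MEL1 it was lowest with SCR, at 0.750 CPM, and stood at 1.56 and 2.61 with KD1 and 1.30 with KD2. All 3 MEL1 knockdown libraries were thus above the single SCR library, by a log2 of 1.13 on average, which has no replicate check and was not tested. FOSL2 (chromosome 2, 28392448 to 28417312, plus strand), encodes FRA2, another FOS relative that pairs with JUN proteins. It stood at 27.7 and 23.3 CPM in H1 SCR, 26.8 and 28.6 with KD1, 25.4 and 30.6 with KD2 and 21.2 and 17.9 with KD3. In MEL1 it was at 9.54 CPM with SCR, 12.5 and 18.4 with KD1 and 11.5 with KD2. The KD3 pair was the lowest in H1, at -0.52 against KD2 on the log2 scale (SE 0.19, edgeR adjusted p = 0.321). In the H1 average FOSL2 had a log2 fold change of -0.05 (SE 0.16).

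For JUN, JUNB and JUND the mean of the KD1 libraries was the highest of the H1 groups. JUN (chromosome 1, 58780788 to 58784327, minus strand), a single-exon gene, encodes the central AP-1 subunit. It stood at 40.4 and 38.7 CPM in H1 SCR, 72.6 and 48.6 with KD1, 24.8 and 54.0 with KD2 and 49.4 and 27.0 with KD3. The SCR pair lay close together and the knockdown libraries reached well above and well below it. In MEL1 JUN was 20.4 CPM with SCR, 29.7 and 49.1 with KD1 and 10.7 with KD2. The H1 average log2 fold change was 0.19 with an SE of 0.38, an interval of 2 SE that takes in both a fall and a rise.

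JUNB (chromosome 19, 12791496 to 12793315, plus strand), also a single exon, encodes a JUN protein that often opposes JUN. It was at 7.66 and 6.09 CPM in H1 SCR, 17.5 and 11.8 with KD1, 4.84 and 10.5 with KD2 and 8.46 and 4.04 with KD3. In MEL1 it stood at 2.45 CPM with SCR, 8.16 and 11.2 with KD1 and 4.81 with KD2, so KD1 was the highest group in each line. The JUNB estimate was the largest of the 10 over both lines, 0.79 on the log2 scale (SE 0.43), with an edgeR adjusted p of 0.394. With the GC trend removed it was 0.50, below the 0.58 of DUSP1. JUND was at 175 and 111 CPM in H1 SCR, 278 and 221 with KD1, 110 and 193 with KD2 and 174 and 136 with KD3. Again both KD1 libraries exceeded both SCR libraries and the other hairpins overlapped them. In MEL1 JUND stood at 68.1 CPM with SCR, 75 and 104 with KD1 and 85.4 with KD2. Its estimate over both lines, 0.38 (SE 0.23), was -0.04 once the GC trend was removed, and JUND had the highest GC content of the members, 69.7%.

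EGR1 and ATF3 were the members whose H1 knockdown libraries did not overlap the control. EGR1 (chromosome 5, 138465490 to 138469315, plus strand) was at 14.3 and 11.4 CPM in H1 SCR. It was at 21.3 and 23.6 CPM with KD1, 21 and 35.4 with KD2 and 15 and 22.1 with KD3. All 6 knockdown libraries were above both SCR libraries, a pattern seen in 8.61% of all genes tested. The SCR mean was 12.8 ± 2.06 CPM (SD, n = 2) and the knockdown mean 23.1 ± 6.72 CPM (SD, n = 6). The log2 fold change of 0.82 (SE 0.23) came with an edgeR adjusted p of 0.0600. The estimate was 0.81 with the GC trend removed. The call is close to the threshold, since DESeq2 gave an adjusted p of 0.00443 and edgeR 0.0242 without H1 KD2 library 1, 0.0441 without H1 KD3 library 1 and 0.327 without H1 SCR library 2. Over the 19 alternatives the adjusted p ran from 1.3e-05, with no filter on low counts, to 0.327. The 5 neural progenitor markers moved with the same groups, summing (without scaling between libraries) to 1172 and 1207 CPM in H1 SCR and 1258 to 1775 CPM in H1 knockdown, and the 5 neuron markers to 313 and 317 CPM and 232 to 297 CPM. In bulk samples fewer cells of a type and less RNA per cell cannot be told apart, and the part of cell makeup in the EGR1 and ATF3 levels was not tested.

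In MEL1, EGR1 did not stand above control. Its level was 18.1 CPM with SCR, 12 and 15.8 with KD1 and 22.5 with KD2, so 1 of 3 knockdown libraries lay above the control. The effect in MEL1 minus that in H1, for KD1 and KD2, was -1.01 on the log2 scale (SE 0.40) with an edgeR adjusted p of 0.236. In that test EGR1 was the 1 member with an unadjusted p under 0.05, which 4282 of all 24898 genes tested had. Of the members, 0 of 10 were called, against 0.598% of all genes. The effect in the 2 lines was therefore not shown to differ for any member.

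ATF3 (chromosome 1, 212565334 to 212620777, plus strand) encodes a stress-induced bZIP factor that pairs with JUN proteins and often represses. It was at 50.4 and 52.1 CPM in H1 SCR, 43.9 and 37.8 with KD1, 19.2 and 30.4 with KD2 and 45.6 and 18.5 with KD3. All 6 knockdown libraries were below both SCR libraries, as in 11.7% of all genes tested. The log2 fold change was -0.68 (SE 0.32) with an edgeR adjusted p of 0.251, and without H1 KD3 library 1 it was -0.95 with an adjusted p of 0.0307. The adjusted p of ATF3 over the 19 alternatives ran from 4.23e-06, with no filter, to 0.564. The SCR pair differed by 1.03-fold and the KD3 pair by 2.46-fold, so the spread lay within the knockdown groups. In MEL1 ATF3 was 42.2 CPM with SCR, 36.9 and 54.1 with KD1 and 19.7 with KD2, on both sides of the control.

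IER2 and DUSP1 had positive estimates that did not pass the threshold. IER2 (chromosome 19, 13150415 to 13154908, plus strand) was at 82.2 and 64.9 CPM in H1 SCR and 75.5 to 93.5 CPM in H1 knockdown, with a median of 83.1. In MEL1 it was at 52.7 CPM with SCR, 72.4 and 77.2 with KD1 and 65.5 with KD2. It was above the SCR mean of its line in 9 of 9 knockdown libraries, yet 3 of the 6 H1 knockdown libraries lay below the higher SCR library. With both lines fitted its log2 fold change was 0.27 (SE 0.11, edgeR adjusted p = 0.261), and 0.048 once the GC trend was removed (edgeR adjusted p = 0.860). It was the member with the least spread between libraries.

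DUSP1 (chromosome 5, 172768090 to 172771195, minus strand) was at 14.0 and 11.2 CPM in H1 SCR, 28.2 and 20.3 with KD1, 11.7 and 20.0 with KD2 and 18.1 and 11.4 with KD3. No H1 knockdown library lay below both SCR libraries and 4 of 6 lay above both. In MEL1 it was at 5.45 CPM with SCR, 10 and 13.3 with KD1 and 5.60 with KD2. With both lines fitted, DUSP1 had a log2 fold change of 0.62 (SE 0.29), at an edgeR adjusted p of 0.316, and of 0.58 with the GC trend removed.

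**Figure D2:**
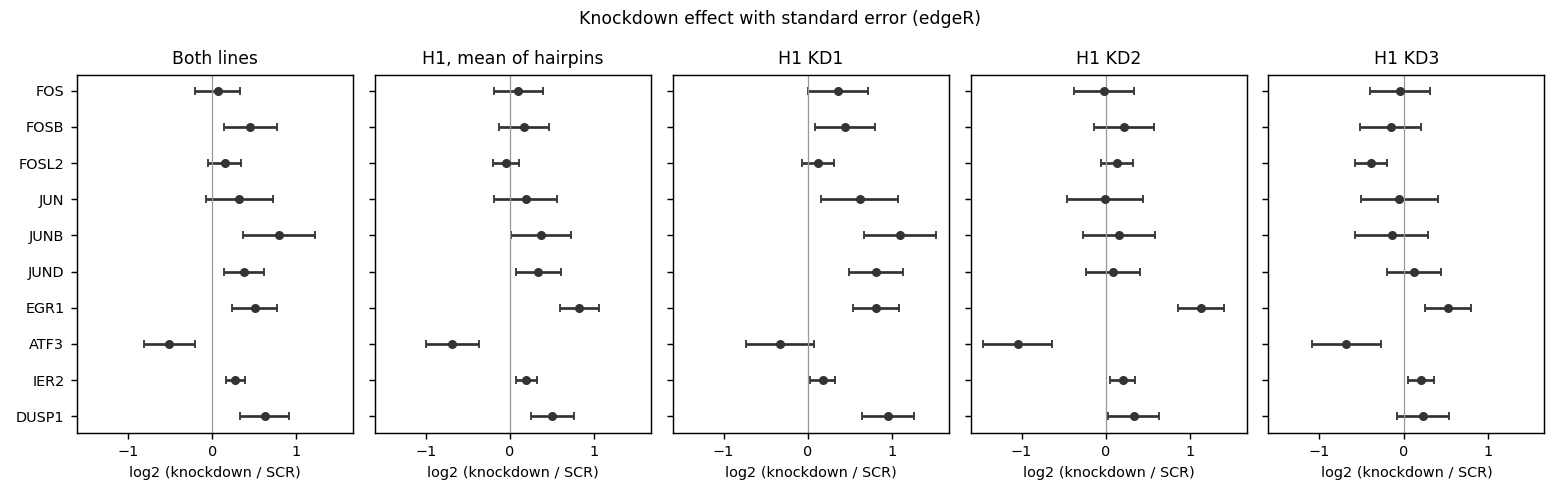
Log2 fold change of each gene with knockdown (horizontal axis) in 5 comparisons, with bars of 1 standard error from edgeR. None of the 50 estimates passed the threshold; EGR1 lay to the right of 0 and ATF3 to the left in each panel.

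The hairpins were then taken singly, all against the same 2 H1 SCR libraries, so their values are not independent. With KD1, edgeR called 0 of 10 members against 11.1% of all genes. An unadjusted p under 0.05 was that of 4 members and of 6617 of all 24898 genes tested. The 4 members were DUSP1 at 0.95 on the log2 scale (SE 0.31, adjusted p = 0.0793), EGR1 at 0.81 (SE 0.27, 0.0854), JUNB at 1.09 (SE 0.43, 0.142) and JUND at 0.81 (SE 0.32, 0.155). With KD2, 0 of 10 were called against 1.54% of all genes. An unadjusted p under 0.05 was that of 2 members and of 4000 of all genes. The 2 members were EGR1 at 1.14 (SE 0.27, edgeR adjusted p = 0.0755) and ATF3 at -1.05 (SE 0.41, adjusted p = 0.268). With KD3, 0 of 10 were called against 2.98%, and 0 had an unadjusted p under 0.05, which 4724 of all genes had. EGR1 was below that unadjusted level with both KD1 and KD2.

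The difference between the hairpins was tested directly, with 2 degrees of freedom. edgeR called 0 of 10 members, against 3.54% of all genes, and DESeq2 called JUNB, against 8.93%. The lowest p were those of FOSL2 (edgeR adjusted p = 0.216) and JUNB (edgeR adjusted p = 0.223). JUNB with KD3 stood at -1.23 against KD1 on the log2 scale (SE 0.43, adjusted p = 0.146 for that pair of hairpins in edgeR). Counts with KD1 also changed with libraries outside that comparison, since the model shares spread over all groups. Without either H1 KD2 library, edgeR called DUSP1 and EGR1 with KD1. Without any 1 of the H1 KD1 or H1 SCR libraries, it called 0.

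In MEL1 no test was made against the single SCR library. The members FOSB, FOSL2, JUNB, JUND, IER2 and DUSP1, 6 in all, were above it in 3 of 3 knockdown libraries, as in 31.6% of all genes tested, with mean log2 differences of 1.13, 0.48, 1.47, 0.36, 0.41 and 0.57. The others had values on both sides of it, with mean log2 differences of -0.25 for FOS, 0.01 for JUN, -0.04 for EGR1 and -0.50 for ATF3. That SCR library had the lowest total and the lowest GC correlation of the 12, -0.54, against 0.35, 0.42 and -0.06 in the knockdown libraries of the line. With the GC trend removed the fitted log2 differences were 0.86 for FOSB, 0.44 for FOSL2, 0.86 for JUNB and 0.40 for DUSP1, and they were below 0 for JUND, at -0.45, and IER2, at -0.06.

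**Figure D3:**
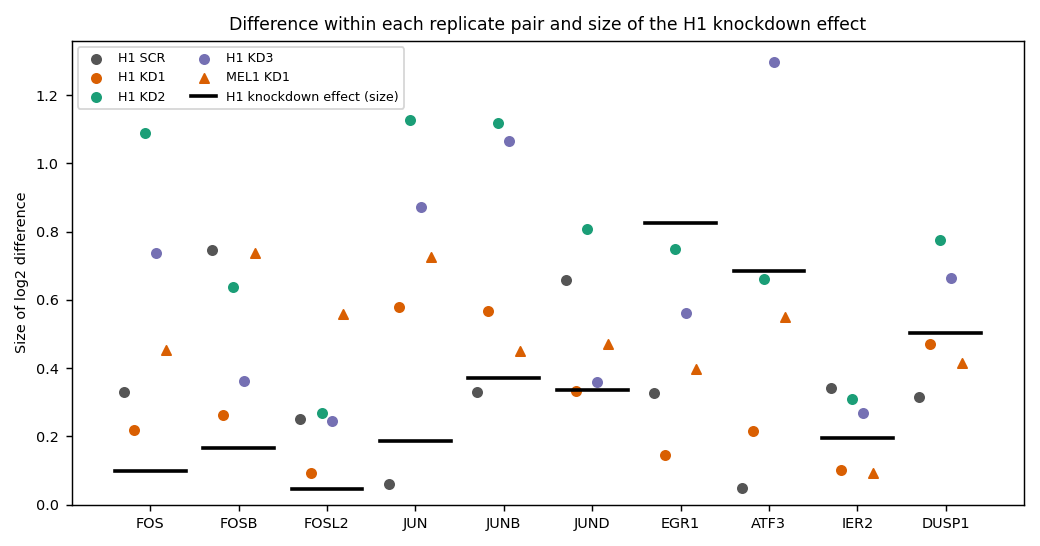
Size of the log2 difference between the 2 libraries of each group (points, vertical axis) beside the size of the H1 average knockdown effect (black bars) for each gene. The bar lies above every point for EGR1; for the other 9 genes at least 1 pair of replicates differed by more than the effect.

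The spread between libraries of a group was larger for these transcripts than for most genes. Pooled over the 5 groups with 2 libraries, the SD of log2 CPM was 0.55 for JUNB, 0.54 for JUN, 0.50 for ATF3, 0.46 for FOS, 0.41 for FOSB, 0.39 for JUND, 0.39 for DUSP1, 0.34 for EGR1, 0.23 for FOSL2 and 0.17 for IER2. The median of the 10 was 0.40, where the median of the 16754 genes tested with a mean of at least 1 CPM was 0.18 and the upper quartile 0.29. Above the median stood 9 members, all but IER2, and above the upper quartile 8, all but IER2 and FOSL2. With the GC trend removed from every library the medians were 0.38 for the members and 0.15 for all genes.

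For 9 of 10 members the largest difference between 2 libraries of a group exceeded the H1 average effect. The largest of 5 pairs, including that of MEL1 KD1, is set here against an average over hairpins. How many of all genes would meet this was not counted. The H1 KD2 libraries differed by 2.18-fold in JUN, 2.17-fold in JUNB and 2.13-fold in FOS. EGR1 was the exception, with a largest pair difference of 0.75 on the log2 scale in KD2 against an effect of 0.82. Members of a pair moved together. All 10 transcripts were higher in H1 KD2 library 2 than in library 1, with a median log2 difference of 0.76, and 8 of 10 differed by over 1.5-fold. Of all genes at 1 CPM or more, 46.1% were higher in that library and 9.50% differed by over 1.5-fold.

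The same joint shift was seen in 2 other pairs. In MEL1 KD1 all 10 were higher in library 2, by a median log2 of 0.46, and in H1 KD3 all but EGR1 were lower in library 2, by a median of -0.51 over the 10. In H1 KD1 and H1 SCR, 3 of 10 were higher in library 2. Of all genes at 1 CPM or more, 48.9% were higher in library 2 of MEL1 KD1, 52.6% of H1 KD3, 46.7% of H1 KD1 and 49.5% of H1 SCR. The member counts come beside GC correlations of -0.21 and 0.12 in the KD2 pair, 0.35 and 0.42 in the MEL1 KD1 pair and 0.01 and -0.50 in the KD3 pair. With the GC trend removed, the counts of members higher in library 2 were 10 for KD2, 10 for MEL1 KD1, 1 for KD3, 2 for KD1 and 5 for SCR. The shares of all genes were then 46.3%, 47.2%, 53.5%, 45.8% and 53.8% in that order. The shift in KD2, MEL1 KD1 and KD3 was thus present without that trend, with medians of 0.65, 0.32 and -0.37.

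**Figure D4:**
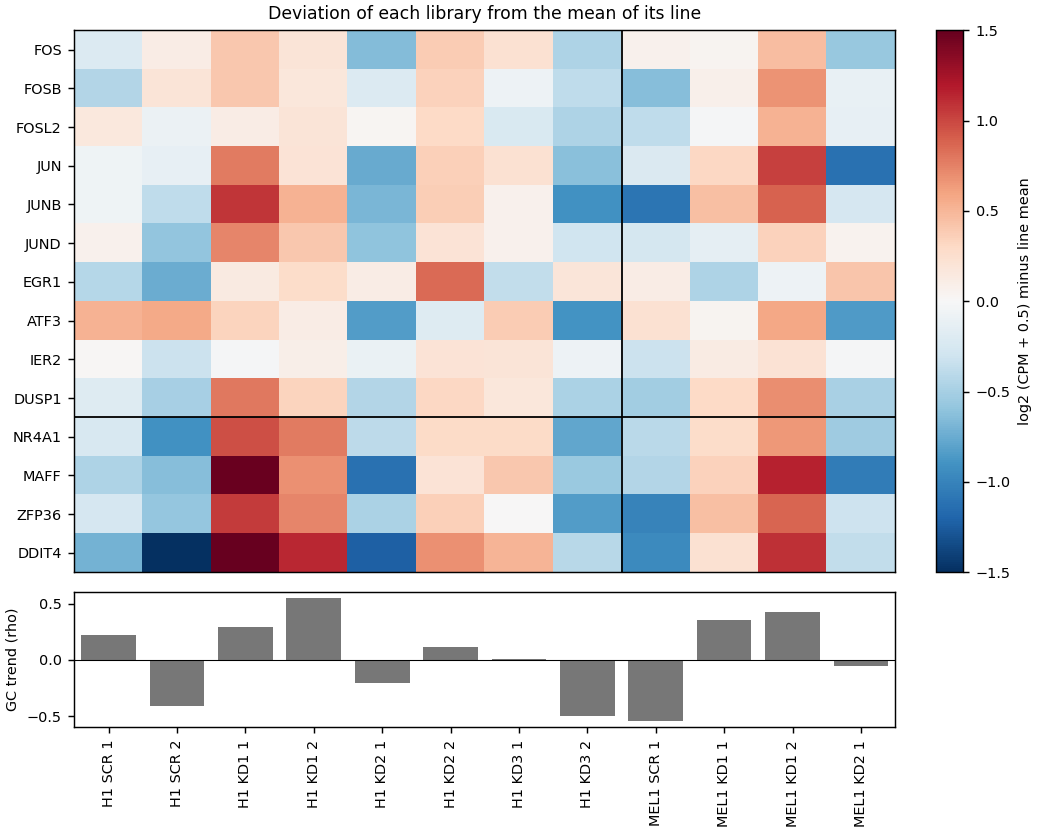
Log2 deviation of each library (columns) from the mean of its line for the 10 genes and, under the line, NR4A1, MAFF, ZFP36 and DDIT4, chosen after their values were seen; colours stop at 1.5. The lower panel gives the GC correlation of each library. H1 KD2 library 1 and H1 KD3 library 2 are mostly blue and H1 KD1 library 1 and MEL1 KD1 library 2 mostly red, while the EGR1 row differs from the others in several libraries.

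Across the 12 libraries, taken as deviations from the mean of each line, 42 of the 45 pairs of members had a positive Pearson r, with a median of 0.59. These correlations share the groups, the depth and the GC trend of the libraries and are descriptions. How often pairs of other genes reach such values was not counted. The pair JUNB and DUSP1 reached 0.94, FOS and JUN 0.92 and JUN and DUSP1 0.89. The 3 negative values were those of EGR1, at -0.14 with JUN, -0.06 with FOS and -0.56 with ATF3. EGR1 was positive with the other 6 members, up to 0.35 with JUND. The mean deviation of the 10 members was highest in MEL1 KD1 library 2, at 0.57, and H1 KD1 library 1, at 0.49. It was lowest in H1 KD3 library 2, at -0.46, and H1 KD2 library 1, at -0.43. With the GC trend removed it was 0.40 in MEL1 KD1 library 2 and 0.40 in H1 KD1 library 1. In H1 KD3 library 2 it was then -0.30 and in H1 KD2 library 1 -0.37.

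DDIT4, a stress-induced inhibitor of mTOR signalling chosen after its values were seen, differed between replicates in all 5 pairs. The difference was 3.77-fold in H1 KD2, 2.19-fold in H1 SCR, 1.90-fold in H1 KD3, 1.82-fold in MEL1 KD1 and 1.65-fold in H1 KD1. It stood at 176 and 666 CPM in the H1 KD2 pair, 587 and 309 in KD3, 239 and 435 in MEL1 KD1, 1493 and 902 in H1 KD1 and 253 and 115 in H1 SCR. DDIT4 belongs to the integrated stress response list, whose other genes summed to 998 and 1043 CPM in the KD2 pair, 1416 and 1110 in KD3 and 910 and 1049 in MEL1 KD1. The heat shock list summed to 3546 and 3375 CPM in the KD2 pair, 4324 and 3832 in KD3 and 6133 and 6716 in MEL1 KD1. Both sums are mostly those of a few abundant genes, so they can hide shifts of scarcer ones. ATF4, ATF5, DDIT3, DDIT4, TRIB3, ASNS, CHAC1 and PPP1R15A, of the stress response list, were higher in library 2 of H1 KD2 and MEL1 KD1 and lower in that of KD3. TRIB3 was at 11.4 and 18.2 CPM in the KD2 pair and 29.1 and 10.9 in KD3, but CHAC1 only at 10.5 and 11.0 in the KD2 pair. PSAT1 and PHGDH, of the same list, were lower in library 2 of both KD2 and KD3 and higher in that of MEL1 KD1. SESN2, the remaining gene, was at 16.1 CPM in both MEL1 KD1 libraries. The part of stress signalling in the joint shift was not tested.

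Genes with the most similar pattern were named by Pearson r over the 12 line-centred libraries among 10316 genes with a symbol and a mean of at least 10 CPM. For JUN these included CD63 at 0.97 and MAPKAPK5-AS1 at 0.97. For FOS they included MAPKAPK5-AS1 at 0.90 and RIPK2 at 0.89. For EGR1 they were BCL2L11 at 0.87, C15orf40 at 0.87 and SHISA2 at 0.85, none of them on the other lists.

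**Figure D5:**
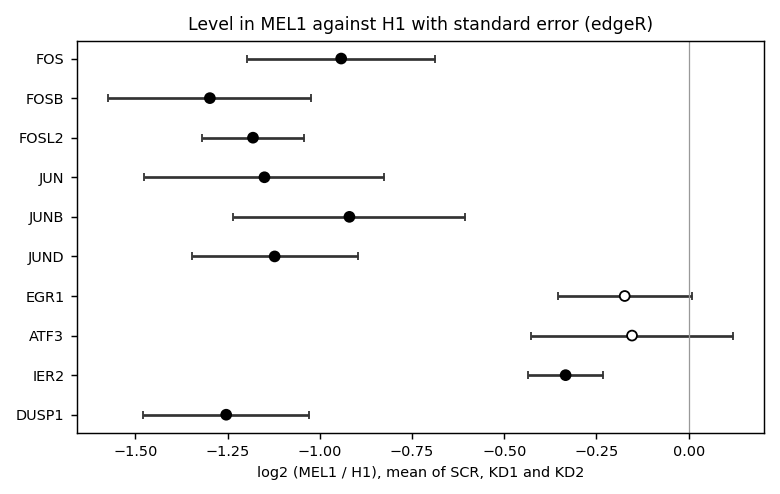
Log2 difference in level between MEL1 and H1 (horizontal axis) for each gene, averaged over SCR, KD1 and KD2, with bars of 1 standard error. Filled points passed an adjusted p under 0.05; the 8 filled genes are lower in MEL1 and EGR1 and ATF3 are open.

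Levels were also compared between the lines. The GC trend was taken from deviations within each line, so its removal leaves GC differences between lines in place. At matched hairpins (the mean of SCR, KD1 and KD2), 8 of 10 members were called and all 8 were lower in MEL1 than in H1. Of all genes tested, 49.1% were called between lines and 26.2% were called lower in MEL1, so calls were common, and the median log2 difference of all genes was -0.09. The largest was FOSB at -1.30 (SE 0.28, edgeR adjusted p = 0.00234), followed by DUSP1 at -1.25 (SE 0.22, 0.00111), FOSL2 at -1.18 (SE 0.14, 3.37e-05) and JUN at -1.15 (SE 0.33, 0.0222). JUND was at -1.12 (SE 0.23, edgeR adjusted p = 0.00370), FOS at -0.94 (SE 0.25, 0.0114), JUNB at -0.92 (SE 0.31, 0.0366) and IER2 at -0.33 (SE 0.10, 0.0188). EGR1 (-0.17, SE 0.18) and ATF3 (-0.15, SE 0.27) were not called, with edgeR adjusted p of 0.464 and 0.684.

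JUND was the member for which every MEL1 library, 68.1 to 104 CPM, lay below every H1 library, 110 to 278 CPM, as in 13% of all genes tested. For FOSL2 the ranges met, at 9.54 to 18.4 CPM in MEL1 and 17.9 to 30.6 CPM in H1. For DUSP1 they were 5.45 to 13.3 CPM and 11.2 to 28.2 CPM. The call of JUN was lost without either H1 SCR library (edgeR adjusted p = 0.0709 and 0.0602), and that of JUNB was lost in 5 of 10 such omissions, with adjusted p from 0.0538 to 0.0912. Over all alternatives the adjusted p ran from 3.96e-23 to 0.0709 for JUN and from 7.82e-07 to 0.0912 for JUNB, the lowest being those with no filter on low counts.

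Summed levels of cell type markers differed between the lines as well, which in bulk RNA does not give the numbers of cells. The 5 pluripotency markers summed to 2198 to 3288 CPM in MEL1 and 1101 to 1339 CPM in H1, and the 5 neural progenitor markers to 602 to 873 CPM in MEL1 and 1172 to 1775 CPM in H1. The 5 neuron markers summed to 59.1 to 95.6 CPM in MEL1 and 232 to 317 CPM in H1. The part of cell makeup in the lower members was not tested.

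Around the members, 8 lists of related genes were examined in the H1 average. Of all 24898 genes tested there, 7.16% were called, 555 up and 1228 down, and the counts below stand beside that share. Of 33 other immediate early genes tested, of 35 listed, 1 rose and 2 fell. BTG2, an antiproliferative early gene, rose by a log2 of 0.53 (SE 0.13, edgeR adjusted p = 0.0398). SGK1, a serum-induced kinase, fell by 0.77 (SE 0.15, edgeR adjusted p = 0.0179), and FOSL1, the FRA1 member of the FOS family, fell by 1.38 (SE 0.37, 0.0491) from 2.33 and 4.23 CPM in SCR to 0.53 to 2.66 CPM, ranges that overlap. The median log2 fold change of the list was 0.07. Over both lines 0 of the 33 were called, against 0.213% of all genes.

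Of 16 genes that feed back on MAP kinase signalling, 0 rose and 2 fell in H1, SPRY4 and DUSP6. SPRY4 fell by 1.37 on the log2 scale (SE 0.10, edgeR adjusted p = 0.000141) and DUSP6 fell by 0.67 (SE 0.09, 0.00311). SPRY4 encodes a Sprouty inhibitor of receptor kinase signalling and DUSP6 the cytoplasmic phosphatase of ERK. SPRY4 levels were 145 and 156 CPM in H1 SCR and 51.9 to 74.8 CPM in H1 knockdown. All H1 knockdown libraries thus lay below SCR, as in 11.7% of all genes tested. It was also called over both lines (adjusted p = 0.0137 in edgeR), at 49.3 CPM in MEL1 SCR and 33.0 to 40.3 CPM in MEL1 knockdown.

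Upstream, 1 of 20 kinases and promoter factors rose and 1 fell. Both were ternary complex factors that bind DNA with SRF: ELK4 rose by a log2 of 1.12 (SE 0.16, edgeR adjusted p = 0.00428) and ELK3 fell by 0.66 (SE 0.14, 0.0223). ELK4 stood at 24.4 and 26.7 CPM in H1 SCR and 40.6 to 72.5 CPM in knockdown, but in MEL1 it was 23.6 CPM with SCR and 17.8 to 25.0 with knockdown. The line difference of the effect missed the threshold for ELK4 (-1.23, SE 0.27, edgeR adjusted p = 0.0625).

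Of 15 genes of AU-rich element decay, the pathway that shortens the life of early messages, 0 were called in the H1 average. An unadjusted p under 0.05 in edgeR was that of 4 of the 15 and of 5783 of all 24898 genes tested. The 2 most abundant were HNRNPD, an AU-rich element binding protein, at -0.31 (edgeR adjusted p = 0.0810), and CNOT1, the deadenylase scaffold, at -0.01 (adjusted p = 0.966). Of the 6 AP-1 partners tested, of 7 listed, 0 rose and 1 fell, which was FOSL1 again. In the integrated stress response list 1 of 11 fell and 0 rose. PSAT1, a serine synthesis enzyme, fell by 0.47 (SE 0.08, edgeR adjusted p = 0.00990). Among 10 heat shock genes 1 fell and 0 rose. HSPE1, the mitochondrial co-chaperonin, fell by 0.68 (SE 0.11, 0.00739 adjusted in edgeR).

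Of the genes known to be driven by AP-1 later in the response, 12 were tested of 13 listed. In the H1 average 3 fell and 0 rose, where 7.16% of all genes were called, HMOX1 and PLAU among those that fell. HMOX1, the stress-induced haem oxygenase, fell by 1.04 on the log2 scale (SE 0.21, edgeR adjusted p = 0.0193), and PLAU, the urokinase, fell by 0.89 (SE 0.18, 0.0227). The median of the 12 was -0.62 in H1 and -0.43 over both lines, where all genes tested had 0.01 and 0.05. In MEL1, against the single SCR library, it was 0.11, with 7 of 12 positive, where all genes had 0.07. MMP1 and MMP3, at means of 0.06 and 0.16 CPM, lie near the floor and count in these medians. The late genes answer to other pathways too, and their relation to the members was not tested.

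Some member values carry an annotation limit. FOSB overlaps ERCC1, JUNB overlaps HOOK2, IER2 overlaps AC011446.2, DUSP1 overlaps AC022217.3 and FOSL2 overlaps FLJ31356 on the opposite strand in GENCODE release 29, and FOSL2 also shares its strand with AC104695.3. The kit keeps strand, but whether the counting used it is not given in the sources used here.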

How the data were processed

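Per the submitters' processing notes, fastp and kallisto were used; their versions, the genome build, the annotation and the strand setting are not given in the sources used here. The authors deposited estimated counts per Ensembl gene identifier, with no sign of scaling in the values, and 0 columns were left unmapped. The name table held 59243 of the 65969 identifiers and gave 41981 a symbol. Coordinates and transcript lengths are from GENCODE release 29 (GRCh38) and promoters from RefSeq (GRCh38.p14).

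The deposited estimated counts were rounded. Genes kept by filterByExpr on the 7 groups (24898) were given TMM scaling, and the robust quasi-likelihood F-test of edgeR 4.0.16 (with limma 3.58.1, under R 4.3.3) was applied. P-values were adjusted by Benjamini-Hochberg over all genes tested, with calls at an adjusted p under 0.05. One model had line and knockdown as terms; another had the 7 group means. In the latter the single-library groups take their spread from the others. Log values used a prior count of 0.5. An SE is the size of a log2 fold change over the square root of F.

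Alternatives were other scalings and filters, a non-robust fit, DESeq2 1.42.0, removal from each library of its spline trends on the GC content (5 degrees of freedom) and the length (4 degrees of freedom) of transcripts, known for 90.6% of tested genes, H1 libraries by themselves, an equal weighting of lines, and leaving out each library. The fits were run on simulated data with larger changes than those of the members and without a GC trend. That run does not show whether changes of the members' size would be called. The members, the 8 gene lists and the 9 marker lists were chosen with earlier results of these data known. Named genes are every member, METTL14, the 3 genes most like FOS, JUN and EGR1, and up to 4 genes per list. The list genes have the lowest adjusted p among those called in the H1 average or over both lines (2 most abundant where none was called). NR4A1, MAFF, ZFP36, DDIT4, DDIT3, TRIB3, PPP1R15A, PHGDH, ATF4, ATF5, ASNS, CHAC1, SESN2, MMP1 and MMP3 were chosen after their values were seen. Some genes that this rule names are not reported here.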

Additional observations from a re-analysis of the deposited data

How the results depend on the processing

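Over both lines 0 members were called under every alternative run. In the H1 average the count of 0 became 4 with no filter on low counts (ATF3, DUSP1, EGR1 and JUND, 8.11% of all genes being called) and 1 with DESeq2 (EGR1, 10.8%). With no filter it became 5 for KD1 (10.4% of all genes), 2 for KD2 (4.35%), 1 for KD3 (5.7%), 6 between hairpins (8.43%) and 1 for the line difference (EGR1, 3.41%); the cause was not tested. DESeq2 gave 3 for KD1 (14.4%), 1 for KD2 (4.61%) and 1 between hairpins (8.93%), and removal of the GC trend gave 1 for KD1 (DUSP1, 14.8%). Leaving out each library gave 0 to 2 in the H1 average, 0 to 2 for KD1, 0 to 1 for KD2 and 6 to 8 between lines. Between lines the 8 calls were the same under each scaling, filter and tool; MEL1 SCR or MEL1 KD2 could not be left out there, since each is a single library. The estimates of 3 members over both lines changed sign: FOS (-0.075 with lines weighted equally), FOSL2 (-0.013 in H1 libraries by themselves) and JUND (-0.037 without the GC trend). Leaving out a library changed the sign of FOS (lowest -0.12, highest 0.27) in the H1 average, FOS over both lines (-0.035 to 0.14), FOSB in H1 (-0.15 to 0.59), FOSL2 in H1 (-0.17 to 0.10) and over both lines (-0.020 to 0.31) and JUN in H1 (-0.037 to 0.34). The member median SD of 0.40 was 0.42 with upper-quartile scaling, 0.41 with median-of-ratios scaling and 0.38 without the GC trend. No paired analysis was possible because the labels carry no replicate numbers. MEL1 SCR, at 15963241 counts, is a single library and gives the least precise values, above all for FOSB at 0.750 CPM.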
